A study of Mus musculus with 4 samples.

Results

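The genes described are those that set whether a cell may enter S phase: the cyclin-dependent kinase (CDK) inhibitors Cdkn1a, Cdkn1b, Cdkn1c, Cdkn2a, Cdkn2b and Cdkn2c, the D cyclins Ccnd1, Ccnd2 and Ccnd3, and the retinoblastoma gene Rb1. They were chosen by symbol as cell-cycle exit genes of myotubes, and all 10 were found among the 23282 features of the count table. C2C12 is a mouse myoblast line, labelled female, whose cells leave the cell cycle and fuse into multinucleated myotubes when growth factors are withdrawn. All 4 libraries came from myotubes deprived of steroids, 2 given vehicle and 2 given 1 µM dexamethasone, a synthetic agonist of the glucocorticoid receptor, each for 2 h. RNA was taken from the washed chromatin of isolated nuclei, so the counts follow transcripts at or near their template. The labels do not say whether the libraries came from separate cultures, so p-values measure only the spread between these samples, which may be technical.

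D cyclins bind CDK4 and CDK6, and the active kinases phosphorylate the Rb protein, which then releases E2F transcription factors that drive the genes of DNA replication. INK4 proteins (products of the Cdkn2 genes) block CDK4 and CDK6 alone, whereas Cip/Kip proteins (products of the Cdkn1 genes) bind many cyclin-CDK complexes. In muscle differentiation p21, the product of Cdkn1a, accumulates as myoblasts stop dividing, Rb keeps the myotube nuclei out of the cycle, and cyclin D3 is the D cyclin that persists in differentiated cells.

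Totals ran from 19631435 to 88596296 counts per library, with TMM factors (scaling factors for library composition) from 0.924 to 1.08. The 10 myotube markers all had counts in every library. Their summed level was 124201 and 43492 scaled CPM (counts per 1000000 counts of a library) in vehicle 1 and 2 and 119789 and 42439 in dexamethasone 1 and 2. Most of that sum was Ttn, the gene of the giant sarcomere protein titin, at 118082 and 41054 against 113312 and 39928 CPM. The split of the sum by replicate number is thus largely that of Ttn, but other markers were split likewise. On the log2 scale, replicate 2 minus replicate 1 was -1.60 in vehicle and -1.70 in dexamethasone for Myh3. For Ckm it was -2.93 and -2.70, and for Des -1.19 and -1.21. Myh8, Acta1 and Myog were also lower in replicate 2 of both groups, whereas Mymk, Tnnt1 and Tnnt3 differed less. Of the 10, 1 lay above vehicle in both dexamethasone libraries (15% of all tested genes did), 0 lay below (12.9%) and 9 overlapped. The one above was Mymk, the gene of the fusion protein myomaker, at 176 and 173 against 208 and 208 CPM. The 7 markers of undifferentiated or cycling myoblasts summed to 60.3 and 65.1 CPM in vehicle against 46.0 and 53.9 in dexamethasone. Among them, 1 gene was above (15% of all tested genes), 1 below (12.9%) and 5 overlapped. The one below was Pax7, a marker of muscle precursors, at 32.0 and 39.0 against 17.9 and 22.9 CPM (edgeR adjusted p 0.456). The lower sum in dexamethasone rests on Pax7 alone. Each of the other markers in this list had a log2 fold change above 0, from 0.07 (Mki67) to 0.30 (Myf5). Fibroblast markers (6 genes, with Thy1 and Lum at 0) summed to 36.4 and 57.0 CPM against 33.2 and 32.1. Of the 4 tested, 1 was above (15% of all tested genes), 3 below (12.9%) and 0 overlapped, and 0 passed an adjusted p of 0.05 in edgeR. Pdgfra was above (log2 fold change 1.04, SE 0.278). Dcn (-0.51, SE 0.242), Col1a1 (-0.98, SE 0.356) and Dpt (-1.51, SE 0.592, on at most 16 counts) were below. Adipocyte markers (5 genes, with Cidec at 0) summed to at most 0.211 CPM. In bulk RNA, fewer cells of a type and less RNA per cell cannot be told apart. The part of these markers in the results that follow was not tested.

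Ccnd3 was the member with the largest difference between the groups, about 3.19-fold higher after dexamethasone. Cdkn1a, the most abundant inhibitor, and Rb1 differed by less than the spread between libraries, and Cdkn2a and Cdkn2b had no counts in any library. Of the 8 members with enough counts to test, 0 passed an adjusted p of 0.05 in edgeR in either direction, where 0.0376% of all 13285 tested genes passed, 5 in all and each higher. At an unadjusted p under 0.05, 1 member was higher (4.09% of all genes) and 0 were lower (1.69%). The dexamethasone pair lay wholly above the vehicle pair in 1 member, Ccnd3 (15% of all genes), and wholly below it in 1, Ccnd2 (12.9%). The median log2 fold change of the 8 members was -0.12, against -0.0016 over all tested genes.

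**Figure D1:**
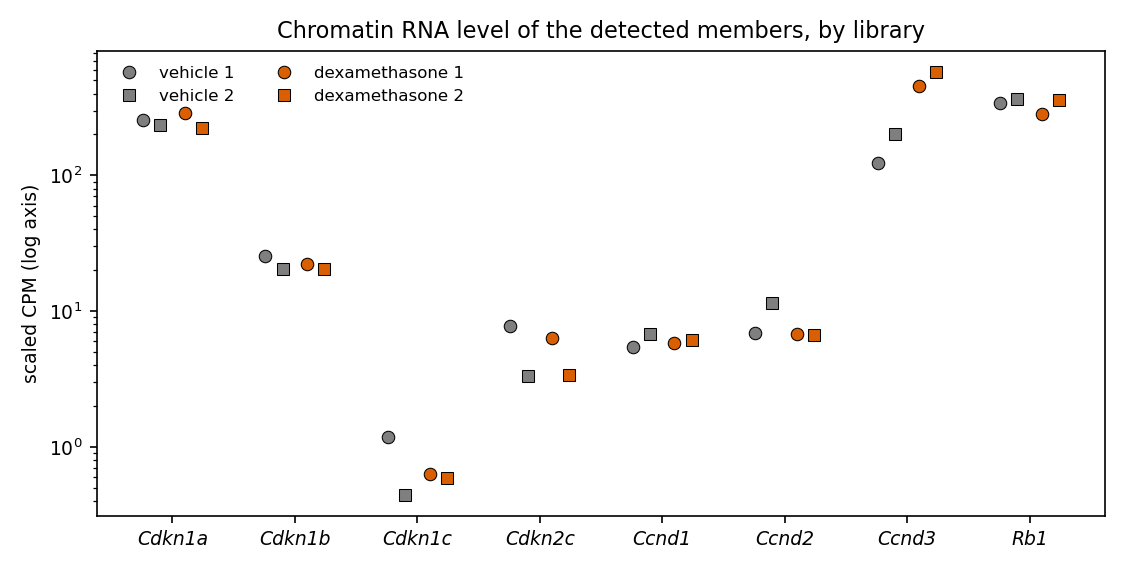
Scaled CPM (log axis) of the 8 members with counts in each library; grey marks vehicle, orange dexamethasone, circles replicate 1 and squares replicate 2. Ccnd3 is the member whose dexamethasone libraries, at 454 and 578, stand well clear of its vehicle libraries, at 122 and 201.

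Ccnd3 (ENSMUSG00000034165) encodes cyclin D3. It had 2283 and 7613 counts in vehicle 1 and 2, and 13603 and 53958 in dexamethasone 1 and 2. Scaled for library size, these were 122 and 201 CPM against 454 and 578 CPM, or 161 ± 55.2 and 516 ± 87.7 (SD, n = 2 each). The groups did not overlap, and the lowest dexamethasone library was above the highest vehicle library by more than the distance between the libraries of either group. The log2 fold change was 1.67 (SE 0.294), the 122nd largest rise among 13285 genes, with an edgeR unadjusted p of 0.00315 and an adjusted p of 0.232. Its 95% interval, not adjusted for the number of genes, ran from 1.86-fold to 5.48-fold. Within replicate number 1 the log2 difference was 1.89, and within number 2 it was 1.53. The replicate 2 libraries were the higher ones in both groups, by 0.71 on the log2 scale in vehicle and 0.35 in dexamethasone. DESeq2's Wald test called Ccnd3 (log2 fold change 1.66, adjusted p 1.19e-05), a test that called 1.78% of genes higher and 0.399% lower. An edgeR fit with replicate number as a block also called it (1.70, adjusted p 0.000196). That fit called 6.87% of genes higher and 5.78% lower, and the labels do not state pairing. So did edgeR without vehicle replicate 2 (2.08, adjusted p 0.0160), which called 0.613% higher and 0.795% lower.

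Ccnd3 has 2 start sites in RefSeq's promoter table, 88.4 kb apart, and the counts per gene do not tell their transcripts apart. The 250 bases before each are shown because Ccnd3 is the member that differed most, with the GC box GGGCGG, or CCGCCC on the other strand, in capitals. The first lies at chr17:47504801-47505050 and the second at chr17:47593217-47593466 (GRCm38.p6, plus strand); the submitters' notes name mm9, and the count table holds no coordinates.
Ccnd3 upstream start: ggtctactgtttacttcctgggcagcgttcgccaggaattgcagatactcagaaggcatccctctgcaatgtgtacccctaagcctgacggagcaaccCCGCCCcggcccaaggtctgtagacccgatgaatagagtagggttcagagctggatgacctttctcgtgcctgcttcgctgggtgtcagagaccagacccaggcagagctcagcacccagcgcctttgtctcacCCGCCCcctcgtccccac
Ccnd3 downstream start: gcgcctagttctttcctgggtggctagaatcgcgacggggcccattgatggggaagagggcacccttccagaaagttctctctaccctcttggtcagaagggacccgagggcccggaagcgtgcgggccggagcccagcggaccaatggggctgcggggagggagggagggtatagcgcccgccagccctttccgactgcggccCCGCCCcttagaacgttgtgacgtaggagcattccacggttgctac
The first window holds 2 GC boxes and the second 1; 32.7% of 32851 promoter windows of this length hold at least 1. Neither holds the glucocorticoid receptor half-site AGAACA on either strand (16.1% of windows do), the full element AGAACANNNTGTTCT (0.00913%), which contains the half-site, or the E-box CAGCTG (13%), a sequence that myogenic factors bind. These matches describe the letters of the windows only. Among the members, 6 had entries, with 10 windows, and the half-site was found in 1 of these, for Cdkn2c; Cdkn1c, Ccnd1, Ccnd2 and Rb1 had none.

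The genes on either side of Ccnd3 had smaller log2 fold changes. Taf8, on the opposite strand, was at 24.1 and 30.3 CPM in vehicle and 31.3 and 35.9 in dexamethasone, also without overlap (log2 fold change 0.30, SE 0.183). Bysl, whose end overlaps that of Ccnd3 on the opposite strand, was at 27.6 and 21.5 against 28.7 and 21.3 (0.02, SE 0.230). Whether the counting used strand is not given in the sources used here, so how reads in the overlap were counted is not known. Bysl had far fewer counts than Ccnd3, between 515 and 1987. Among 9237 other tested genes with at least 100 counts in every library, those nearest to Ccnd3 in pattern over the 4 libraries were Loxl3 and Csrp2, with a root mean square difference of centred log2 CPM of 0.049 and 0.055. Loxl3 had 15.1 and 22.8 CPM in vehicle and 53.7 and 71.4 in dexamethasone.

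The other D cyclins had much lower CPM, which are not scaled for gene length, with log2 fold changes below 0. Ccnd1 (ENSMUSG00000070348), the cyclin D that growth factors induce in dividing cells, had 5.47 and 6.85 CPM in vehicle and 5.80 and 6.18 in dexamethasone, with the groups interleaved (log2 fold change -0.04, SE 0.219). Its 95% interval ran from 0.650-fold to 1.45-fold. Ccnd2 (ENSMUSG00000000184) had 6.86 and 11.5 CPM in vehicle and 6.77 and 6.72 in dexamethasone. The groups did not overlap, but vehicle 1 lay only just above the dexamethasone pair, and the log2 fold change was -0.46 (SE 0.300, edgeR adjusted p 1.00). The log2 difference of Ccnd2 was -0.02 within replicate number 1 and -0.78 within number 2, and without vehicle replicate 2 it was -0.02. Each of these genes overlaps a gene on the opposite strand with similar counts, LTO1 for Ccnd1 (85 to 578 counts, against 102 to 577) and 9330179D12Rik for Ccnd2 (88 to 870, against 128 to 628), so their levels are uncertain where strand was not used in counting.

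Ccnd3 thus took most of the D cyclin counts in every library, and a larger share after dexamethasone. Its share was 90.8% (95% Wilson interval 89.7% to 91.9%) in vehicle 1 and 91.6% (91.0% to 92.2%) in vehicle 2, against 97.3% (97.0% to 97.6%) in dexamethasone 1 and 97.8% (97.7% to 97.9%) in dexamethasone 2. The intervals of the groups did not overlap, but they cover counting error only, not the spread between libraries. The 2 libraries of a group were close to each other in this share although the level of Ccnd3 was not. The share rests on the same Ccnd3 counts as the fold change above. An exact permutation test (two-sided) gave p = 0.333, the smallest that 2 libraries against 2 allow. Ccnd2 held 5.09% and 5.27% of the D cyclin counts in vehicle and 1.45% and 1.14% in dexamethasone, and Ccnd1 4.06% and 3.13% against 1.24% and 1.05%. These are shares of counts, not per length.

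**Figure D2:**
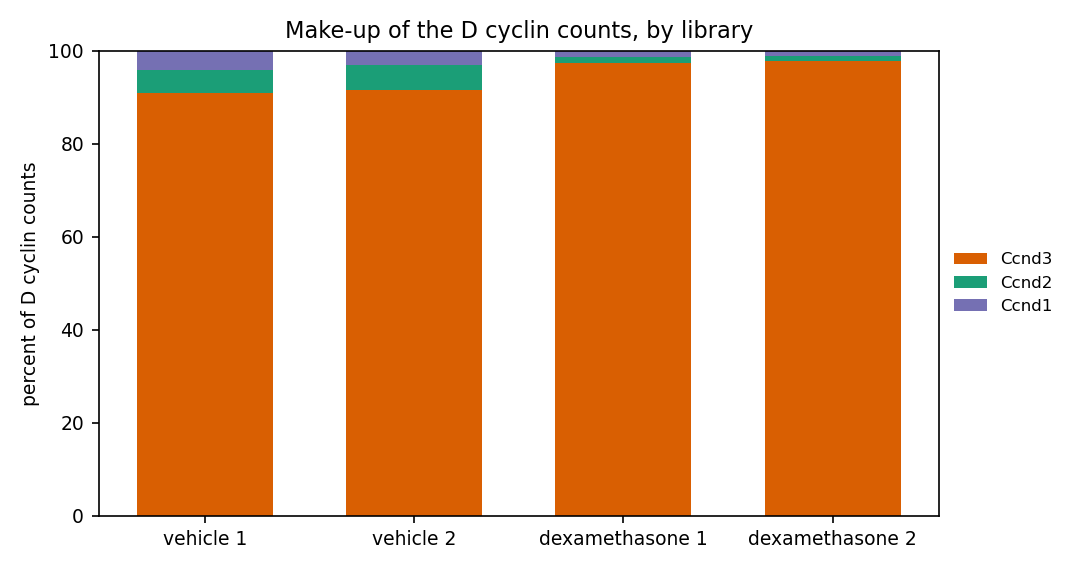
Stacked bars give the percent of the D cyclin counts that fell on Ccnd3, Ccnd2 and Ccnd1 in each library. Ccnd3 takes 90.8% and 91.6% in vehicle and 97.3% and 97.8% in dexamethasone.

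Among the Cip/Kip inhibitors, Cdkn1a was dominant and none differed beyond the spread between libraries. Cdkn1a (ENSMUSG00000023067), which encodes p21, had 4732 and 8867 counts in vehicle and 8619 and 20758 in dexamethasone. Scaled, these were 254 and 234 CPM against 287 and 222 CPM. The dexamethasone libraries enclosed the vehicle libraries, and the log2 fold change was 0.06 (SE 0.173, edgeR adjusted p 1.00), with a 95% interval from 0.761-fold to 1.44-fold. The sign followed the library left out, from -0.13 without dexamethasone replicate 1 to 0.24 without dexamethasone replicate 2. Trp53cor1, the gene of a long noncoding RNA next to Cdkn1a on the opposite strand, differed as little, at 43.1 and 42.2 CPM against 44.9 and 44.0 (log2 fold change 0.06, SE 0.125). The genes nearest to Cdkn1a in pattern were Tmem199 and 2510039O18Rik, at 0.011 and 0.012 root mean square difference.

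Cdkn1b (ENSMUSG00000003031), which encodes p27, had 25.7 and 20.4 CPM in vehicle and 22.4 and 20.3 in dexamethasone. The groups overlapped, with a log2 fold change of -0.11 (SE 0.182) and a 95% interval from 0.665-fold to 1.30-fold. Cdkn1c (ENSMUSG00000037664), the imprinted gene of p57, had only 22 and 17 counts in vehicle and 19 and 55 in dexamethasone. Its scaled level was 1.2 and 0.448 CPM against 0.634 and 0.589, and its interval, from 0.268-fold to 2.26-fold, includes large differences in either direction. Its log2 fold change was -0.36 (SE 0.581) and moved to -1.53 (SE 0.787) when all libraries were thinned to the smallest total. Kcnq1ot1, the imprinted noncoding RNA gene next to it on the same strand, had 265 and 274 CPM in vehicle and 252 and 261 in dexamethasone. Cdkn1a made up 90.4% to 91.8% of the Cip/Kip counts in vehicle and 91.4% to 92.6% in dexamethasone, where the ranges overlap.

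Of the 3 INK4 members, Cdkn2c alone had counts. Cdkn2c (ENSMUSG00000028551) encodes p18. Its level was 7.78 and 3.35 CPM in vehicle and 6.40 and 3.42 CPM in dexamethasone. Replicate 1 was the higher library in each group, and the groups overlapped (log2 fold change -0.18, SE 0.538). The 95% interval, from 0.330-fold to 2.38-fold, is wide, because the replicates differed by 1.21 and 0.90 on the log2 scale in vehicle and dexamethasone. Leaving out single libraries moved the log2 fold change from -0.68 to 0.54.

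Cdkn2a (ENSMUSG00000044303), whose reading frames encode p16Ink4a and p19Arf, and Cdkn2b (ENSMUSG00000073802), which encodes p15, were at 0 in all 4 libraries. A count of 0 allows up to 3 counts per library, or 0.153, 0.0854, 0.0924 and 0.0339 unscaled CPM in vehicle 1, vehicle 2, dexamethasone 1 and dexamethasone 2, counting error only. Both lie on chromosome 4 next to Mtap, on the opposite strand, which had 703, 1618, 1132 and 4035 counts in the same order. On their own strand they belong to a run of 3 consecutive genes at 0, and the next gene with counts, Elavl2, had 62, 54, 33 and 176. Listed zeros can reach much further: Ccnb2 and Smad3, on chromosome 9, lie in a run of 371 consecutive genes of 1 strand that are all at 0. Why the INK4 pair has no counts was not tested. The fourth INK4 gene, Cdkn2d (p19Ink4d), which is no member, had 70055, 116063, 86485 and 252935 counts; it directly precedes a run of 164 genes at 0 on its strand of chromosome 9, so its count was not read as its level.

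Rb1 (ENSMUSG00000022105) had 6330 and 13853 counts in vehicle and 8502 and 33357 in dexamethasone. Scaled, this was 339 and 365 CPM against 284 and 357 CPM. Dexamethasone 1 was the low library and dexamethasone 2 lay between the vehicle libraries. The log2 fold change was -0.14 (SE 0.165, edgeR adjusted p 1.00), with a 95% interval from 0.672-fold to 1.23-fold. Lpar6, which lies inside Rb1 on the opposite strand, and Rcbtb2, which overlaps its end, had 226 to 851 and 773 to 3143 counts, few beside those of Rb1. Rbks was near to Rb1 in pattern, at 0.013 root mean square difference. For the less abundant members these were Gmpr2 and 5031425E22Rik for Ccnd1 (0.0091 and 0.0096), Atp8b1 and Sh3bp1 for Ccnd2 (0.063 and 0.090), and A830082N09Rik and Ankrd28 for Cdkn1b (0.0093 and 0.012). Cdkn1c had Tuba1a and Jmjd8 (0.062 and 0.12), and Cdkn2c had 9330159F19Rik and Eml5 (0.023 and 0.027).

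**Figure D3:**
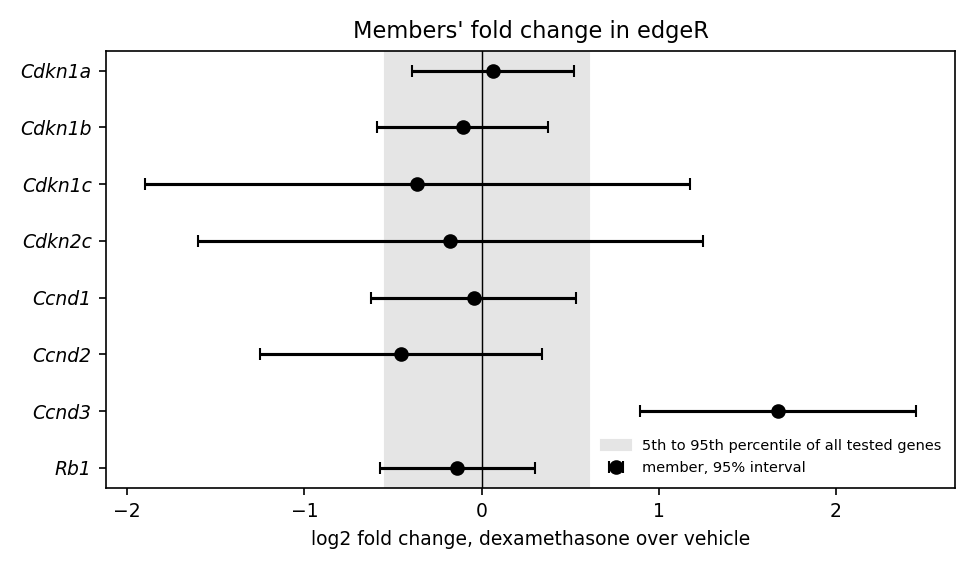
Log2 fold change of dexamethasone over vehicle in edgeR for the 8 tested members (points, with 95% intervals not adjusted for the number of genes); the grey band spans the 5th to 95th percentile of all tested genes, -0.54 to 0.60. The interval of Ccnd3, from 0.90 to 2.45, lies wholly above the band, and the other points lie inside it.

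Levels were compared between members per kb of exon. In vehicle, Cdkn1a stood highest at 68.6 ± 4.01 CPM per kb (SD, n = 2), followed by Rb1 at 58.6 ± 3.0, Ccnd3 at 18.4 ± 6.30 and Cdkn1b at 5.06 ± 0.819. Cdkn2c (2.07 ± 1.17), Ccnd1 (1.31 ± 0.207), Ccnd2 (0.978 ± 0.351) and Cdkn1c (0.399 ± 0.254) came below. Cdkn2c overlapped Ccnd1 in the range of its vehicle libraries, as did Ccnd1 and Ccnd2, and the other neighbours in this order did not overlap. In dexamethasone Ccnd3 moved to 58.8 ± 9.99, between Cdkn1a at 71.7 ± 13 and Rb1 at 53.3 ± 8.65, and its libraries overlapped those of both, while Cdkn1a stayed above Rb1 in all libraries. The ratio of Ccnd3 to Rb1 per kb of exon was 0.247 and 0.377 in vehicle 1 and 2 but 1.1 and 1.11 in dexamethasone 1 and 2. Against Cdkn1a it was 0.195 and 0.348, then 0.639 and 1.05. Per kb of gene span, which suits counts that include introns, Cdkn1b moved up to the second place in vehicle at 4.51 ± 0.729. It lay behind Cdkn1a at 25 ± 1.46 and ahead of Rb1 at 2.48 ± 0.127 and Ccnd3 at 1.71 ± 0.584. Relative to Ccnd3, Ccnd1 (0.616 ± 0.0976) and Ccnd2 (0.340 ± 0.122) stood higher than per kb of exon. In dexamethasone, Cdkn1a had 26.1 ± 4.73 per kb of span, Ccnd3 5.45 ± 0.926, Cdkn1b 4.18 ± 0.292 and Rb1 2.25 ± 0.366. By this length Ccnd3 was above Rb1 but far below Cdkn1a in both dexamethasone libraries.

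Around the members, 6 lists of cell cycle control genes were read in the same fit. Of their 98 genes, 96 were tested, and 0 passed an adjusted p of 0.05 in edgeR. At an unadjusted p under 0.05, 7 were higher and 0 lower, where 4.09% and 1.69% of all tested genes were. The dexamethasone pair lay wholly above the vehicle pair in 23 and wholly below it in 5, against 15% and 12.9% of all tested genes. The 5 below include Cdkn2d, whose count was not read as its level. DESeq2's Wald test called 5 of the 96, Cebpd, Foxo3, Rrm2, Tfdp2 and Wee1, each higher, as were 1.78% of all genes. The median log2 fold change was 0.07.

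Among 18 genes of the Rb family, E2F and MuvB (the complex that joins Rb relatives on cell cycle promoters), 4 had both dexamethasone libraries above vehicle, 2 below and 12 overlapping, with a median of 0.05; over all tested genes 15% were above and 12.9% below. Tfdp2, a DNA-binding partner of E2F proteins, had 96.9 and 73.8 CPM in vehicle and 206 and 143 in dexamethasone (log2 fold change 1.03, SE 0.246, edgeR adjusted p 0.406). E2f2, an activating E2F, had 35.8 and 59.4 against 15.5 and 33.3 CPM (-0.96, SE 0.456, adjusted p 1.00). In both genes all dexamethasone libraries lay on 1 side of the vehicle libraries, but E2f2 also differed between replicate numbers, by 0.73 on the log2 scale in vehicle and 1.1 in dexamethasone. E2f8, an atypical repressor, stood at 0.27 (SE 0.143), Lin37 of MuvB at 0.18 (SE 0.198) and E2f1 at -0.28 (SE 0.335). Of the Rb relatives, Rbl1 (p107) overlapped between the groups (-0.10, SE 0.267), and Rbl2 (p130) lay slightly above vehicle in both dexamethasone libraries (0.10, SE 0.125).

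Of 19 other CDK, cyclin and CDK regulator genes, 18 were tested, with 3 above (15% of all genes), 1 below (12.9%) and a median of 0.07. The one below was Cdkn2d, whose count was not read as its level. Wee1, whose kinase inhibits CDK1 and CDK2 by phosphorylation, had the largest difference of all the listed genes, from 7.35 and 6.375 CPM in vehicle to 39.4 and 31.0 in dexamethasone. That was 5.14-fold (log2 fold change 2.36, SE 0.204, edgeR adjusted p 0.117), the 53rd largest rise of all. Besides DESeq2, it passed in edgeR with no filter on low counts, and without vehicle replicate 2 or without dexamethasone replicate 2. Mnat1, a subunit of the CDK-activating kinase, had 433 and 465 CPM against 657 and 689 (0.58, SE 0.129, adjusted p 0.355). Its partners overlapped between the groups, Cdk7 at 0.04 (SE 0.117) and Ccnh at -0.02 (SE 0.142). The kinases that D cyclins bind also overlapped between the groups: Cdk4 had -0.11 (SE 0.215) and Cdk6 -0.10 (SE 0.170). Ccna2, at under 4 CPM throughout, had 0.09 (SE 0.223).

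The 17 replication genes under E2F control, all tested, had 3 above (15% of all genes), 0 below (12.9%) and a median of 0.07. Rrm2, the small subunit of ribonucleotide reductase, stood out at 5.09 and 3.98 CPM in vehicle and 14.1 and 11.4 in dexamethasone (log2 fold change 1.49, SE 0.237, edgeR adjusted p 0.201). Its partner subunit Rrm1 did not separate the groups (0.22, SE 0.259). Orc1, a subunit of the origin recognition complex, was at 0.34 (SE 0.271), while Mki67, Pcna and Top2a lay between 0.07 and 0.09. Log2 fold changes over the whole list ran from -0.56 to 1.49.

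Upstream of the members, 16 of 17 transcription factors were tested, with 8 above (15% of all genes), 0 below (12.9%) and a median of 0.21. Cebpd, a C/EBP factor that restrains growth in several cell types, had 1.23 and 1.45 CPM in vehicle and 5.47 and 6.76 in dexamethasone (log2 fold change 2.18, SE 0.271, edgeR adjusted p 0.134). Foxo3, whose protein can activate Cdkn1b, had 202 and 244 against 658 and 592 CPM (1.49, SE 0.162, adjusted p 0.123), while Cdkn1b itself overlapped between the groups. Myc, which opposes cell cycle exit, had 30.1 and 19.9 against 48.1 and 32.7 CPM (0.69, SE 0.300). Trp53, the gene of p53 that activates Cdkn1a, had -0.05 (SE 0.141).

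The 15 other p53 target genes, all tested, had 3 above (15% of all genes), 1 below (12.9%), 11 overlapping and a median of -0.02. Sesn1 had 209 and 161 CPM in vehicle and 385 and 279 in dexamethasone (log2 fold change 0.85, SE 0.231, edgeR adjusted p 0.513). Btg2, an antiproliferative gene, was at 0.44 (SE 0.235), Aen at 0.14 (SE 0.136) and Sesn2 at -0.35 (SE 0.204). Mdm2, the negative regulator of p53, was at -0.03 (SE 0.230).

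Of 13 genes for the turnover of p27, p21 and D cyclins, all tested, 2 were above (15% of all genes), 1 below (12.9%) and 10 overlapped, with a median of 0.06. Skp2, whose ubiquitin ligase targets p27, had 51.6 and 46.3 CPM in vehicle and 36.8 and 41.0 in dexamethasone (log2 fold change -0.33, SE 0.144, edgeR adjusted p 0.987). Its cofactor Cks1b was at 0.20 (SE 0.431) on at most 34 counts, and Cul4a at 0.11 (SE 0.126). Ambra1, the adaptor through which D cyclins are degraded, was at 0.02 (SE 0.126).

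**Figure D4:**
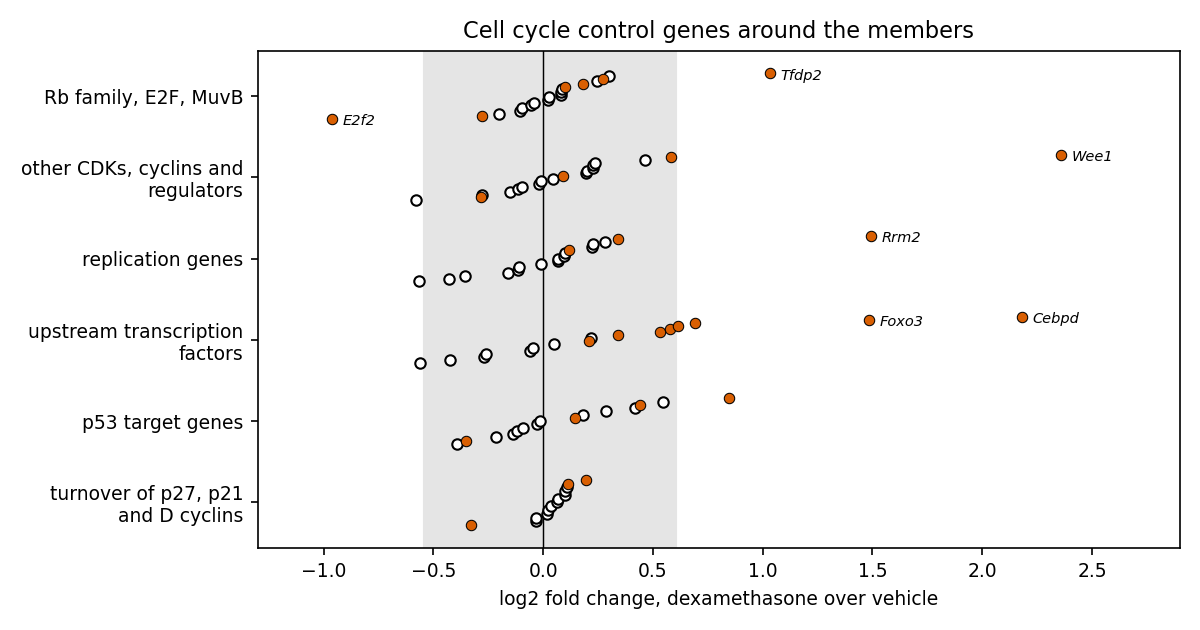
Each point is the edgeR log2 fold change of dexamethasone over vehicle for 1 tested gene of the 6 lists; orange points have both dexamethasone libraries on 1 side of both vehicle libraries, open points overlap, and the grey band spans -0.54 to 0.60, the 5th to 95th percentile of all tested genes. Wee1 (2.36), Cebpd (2.18), Rrm2 (1.49), Foxo3 (1.49) and Tfdp2 (1.03) lie farthest to the right and E2f2 (-0.96) farthest to the left.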

How the data were processed

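Nascent RNA was sequenced from C2C12 myotubes in 4 libraries. The authors deposited raw read counts for each gene, with no normalization. The labels' protocols name both a stranded total RNA kit and a stranded mRNA kit. The submitters' processing notes name TopHat2 2.0.13, SAMtools 1.1, HTSeq 0.6.1, DESeq2 1.18.1 and the build mm9; strand setting, annotation and the counting of introns are not given in the sources used here. Columns were matched to samples by name. Of 23333 rows, 51 repeats of a gene and its counts were used once, which left 23282 features.

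Genes passing filterByExpr (minimum count 10, minimum total 15), 13285 in all, were fitted in edgeR 4.0.16 (R 4.3.3) with TMM scaling and group as the only term. The quasi-likelihood test was two-sided, with Benjamini-Hochberg adjustment over all genes and a threshold of 0.05. The fit was tested on simulated counts whose spread was set below that of these data (common biological coefficient of variation 0.245). That test does not show how the fit performs at the spread of these data. CPM are counts per 1000000 counts of a library, scaled by TMM, with mean ± SD of 2 libraries. Log2 CPM per library used a prior count of 2. Lengths came from GENCODE M21 (GRCm38), matched on Ensembl identifier (99.5% of tested genes), and served for per-kb levels and neighbour order. Promoter sequences are RefSeq's (GRCm38.p6). Shares have 95% Wilson intervals, which cover counting error only.

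The members and the gene lists were chosen with earlier results of these data known. All 10 members are named; from each list, up to 3 genes per direction with the largest fold change among those in which the dexamethasone libraries lie wholly to 1 side of the vehicle libraries, and for each tested member the 2 genes nearest in pattern. Rbl1, Rbl2, Cdk4, Cdk6, Cdk7, Ccnh, Rrm1, Mki67, Pcna, Top2a, Trp53, Mdm2 and Ambra1, and the genes next to members, were named after their values were seen. Of the genes this rule names, 2 are not reported here. Alternatives were other scalings, filters and tests (DESeq2 1.42.0, limma 3.58.1), a replicate block, thinning, and leaving out each library. With 2 libraries per group, the labels do not establish that libraries of the same replicate number are pairs. The replicate differences correlated between the groups across genes (r = 0.734), and the block is given as an alternative.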

Additional observations from a re-analysis of the deposited data

How the results depend on the processing

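Against 5 genes higher and 0 lower, with 0 members and 0 listed cell cycle genes called, the Wald test of DESeq2 gave 236 and 53, with 1 member (Ccnd3) and 5 listed genes. A fit with no filter beyond 1 count called 23 higher genes and 1 listed gene, Wee1. In limma-voom 0 genes passed; 540 higher genes and 231 lower ones had an unadjusted p under 0.05. A replicate block in the edgeR model gave 913 higher (6.87%) and 768 lower genes (5.78%). Among them were 1 member (Ccnd3, log2 fold change 1.70, adjusted p 0.000196) and 21 listed genes, including the 5 that DESeq2 called. The 21 also include Cdkn2d, whose count was not read as its level. The replicate 1 to replicate 2 differences correlated between the groups across genes (r = 0.734), which are not independent, and the cause of the added calls was not tested.

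Fits without 1 library, in which the lone library of a group is assumed to vary like the rest, called 4 to 84 genes higher, 0 to 109 lower, 0 to 1 members higher and 0 to 2 listed genes. The largest numbers came without vehicle replicate 2, and Ccnd3 ran from 1.36 to 2.08. Signs of the log2 fold change were reversed in these fits for Cdkn1a (-0.13 to 0.24), Cdkn1b (-0.26 to 0.067), Cdkn1c (-0.94 to 0.44), Cdkn2c (-0.68 to 0.54), Ccnd1 (-0.19 to 0.14) and Rb1 (-0.31 to 0.025), each at an adjusted p near 1.00. The 64 other fits of the 8 members held 0 reversals, and Ccnd3 passed in 2 of them. Cdkn1c moved most in these, from -0.36 to -1.53 when all libraries were thinned to the smallest total; the cause was not tested. Ccnd3 had an adjusted p between 1.19e-05 and 0.496 over all alternatives. With gene span as length, 5 of 8 members kept their place in the order of levels. Cdkn2a and Cdkn2b, at 0, and Cdkn1c, with 17 to 55 counts, rest on the fewest counts of the members.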
